A study of Mus musculus with 6 samples.

Results

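Long noncoding RNAs (lncRNAs) were taken from a table of genes selected by the authors because they differed between MLO-Y4 cells labelled hypoxia and MLO-Y4 cells labelled normoxia. The members are the rows that the table types as lncRNA and places on an autosome, which gave 84 of 2065 listed genes (4.07%), spread over all 19 autosomes. MLO-Y4 is an established mouse cell line that resembles osteocytes, the cells that sit inside mineralized bone. RNA from 3 libraries labelled hypoxia (2% O2 in a hypoxic chamber, replicates 1, 2 and 4) was set against RNA from 3 libraries labelled normoxia (20% O2, replicates 2, 3 and 4). All 6 titles give 24 h of culture, while 4 descriptions, those of hypoxia replicates 2 and 4 and normoxia replicates 3 and 4, give 25 or 26 h. All 6 libraries come from 1 line, and no label names separate cultures, so a p-value here reflects the spread of these libraries alone, and that spread may be technical.

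An lncRNA is a long transcript that is not translated into a known protein. Some act in the nucleus on chromatin or splicing, some carry small nucleolar RNAs (snoRNAs) or microRNAs (miRNAs) in their introns or exons, and many are made from the opposite strand, or from the other side of the promoter, of a protein-coding gene. The libraries were made from messenger RNA with a stranded kit of a type that captures polyadenylated RNA, so lncRNAs without a poly(A) tail are captured poorly. Values are log2(value + 1), where the linear unit has no name in the files and the sequencing depth is unknown, so levels of different genes are not compared.

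The libraries had the following limits. Of 32 targets of HIF, the hypoxia-inducible factor that switches on genes at low oxygen, 22 were listed, and 20 of them were lower and 2 higher in the libraries labelled hypoxia, where 20.6% of all genes tested were lower and 79.4% higher. The targets therefore go against the labels, and every direction below is given by label. The summed linear values of all listed genes were 161067 to 166071 in the libraries labelled hypoxia and 175405 to 183535 in those labelled normoxia. Of 11 osteocyte markers only podoplanin (Pdpn) and Trp53inp2 were listed, so the defining markers Sost and Dmp1 have no value here. Of 10 macrophage and osteoclast markers Cd68 and Mmp9 were listed, with summed linear values of 8.34 to 10.7 under the hypoxia label and 22.8 to 26.5 under the normoxia label. These 2 went in opposite directions, Cd68 by -1.46 and Mmp9 by 1.16, so the sum is not a change of the list as a whole. Of 10 osteoblast markers 7 were listed, 5 higher as deposited (such as Col1a1, 2.71, with Spp1 below 0 after rescaling with the trimmed mean (TMM) factors described below) and 2 lower (Phospho1, -2.24, and Runx2, -1.04). The adipocyte marker Cebpa was higher (1.20), the chondrocyte marker Sox9 (-2.12) and the muscle marker Acta1 (-2.59) were lower, and none of the 5 endothelial markers was in the table. The part of other cell types in the lncRNA differences was not tested.

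Several of the 84 lncRNAs contain a small RNA gene on their own strand in the GENCODE vM21 annotation. The mature miRNAs of 5 of them are shown because the host transcripts changed in different directions. Mir22hg, Gm49890 and 2900076A07Rik were higher as deposited, with 0 of the 3 called with TMM factors, and Gm28373 and Lncppara were lower, in the libraries labelled hypoxia. The sequences are from RefSeq on GRCm38.p6, an older build than the GRCm39 of the authors' files, and capitals mark the seed, bases 2 to 8, with which a miRNA pairs to its targets.
miR-22-3p, from Mir22hg, chr11:75463772-75463793, plus strand: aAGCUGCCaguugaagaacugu
miR-31-5p, from Gm49890, chr4:88910614-88910635, minus strand: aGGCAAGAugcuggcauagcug
miR-1839-5p, from 2900076A07Rik, chr7:81529919-81529940, plus strand: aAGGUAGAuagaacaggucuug
miR-1936, from Gm28373, chr12:102684943-102684965, minus strand: uAACUGACcugcugugaacuggc
let-7c-5p, from Lncppara, chr15:85706616-85706637, plus strand: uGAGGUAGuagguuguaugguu
let-7b-5p, from Lncppara, chr15:85707325-85707346, plus strand: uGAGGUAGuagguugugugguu
The seed GAGGUAG is shared by let-7c-5p and let-7b-5p, both inside Lncppara, and the other 4 seeds differ from it and from each other. The mature miRNAs themselves were not measured, so their levels are not analysed here.

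RefSeq promoters, 250 bases before to 50 bases after the start, were found for 41 of the 84 lncRNAs. Of the promoters 5 are shown, those of 3 lower lncRNAs (Chaserr, Lncpint and Malat1) and those of a pair of higher lncRNAs, a miRNA host and the antisense partner of a kinase gene. They were chosen after the values were seen. Capitals mark ACGTG or GCGTG, the core of the HIF response element, on either strand, which reads CACGT or CACGC on the other strand. A CACGTG holds ACGTG on both strands and counts on each. Coordinates are GRCm38.p6.
Chaserr, chr7:73558346-73558645, minus strand: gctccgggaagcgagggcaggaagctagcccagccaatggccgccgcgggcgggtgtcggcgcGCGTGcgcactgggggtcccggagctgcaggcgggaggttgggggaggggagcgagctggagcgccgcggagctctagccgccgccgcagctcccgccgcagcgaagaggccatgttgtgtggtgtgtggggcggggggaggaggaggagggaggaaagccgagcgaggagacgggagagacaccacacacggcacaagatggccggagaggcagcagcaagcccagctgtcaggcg
Lncpint, chr6:31218425-31218724, minus strand: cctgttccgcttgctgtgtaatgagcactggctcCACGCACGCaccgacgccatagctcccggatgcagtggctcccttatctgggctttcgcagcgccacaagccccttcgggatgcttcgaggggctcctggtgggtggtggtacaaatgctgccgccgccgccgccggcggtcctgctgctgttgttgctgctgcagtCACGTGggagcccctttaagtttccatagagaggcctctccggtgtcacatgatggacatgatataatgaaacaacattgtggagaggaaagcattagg
Malat1, chr19:5802623-5802922, minus strand: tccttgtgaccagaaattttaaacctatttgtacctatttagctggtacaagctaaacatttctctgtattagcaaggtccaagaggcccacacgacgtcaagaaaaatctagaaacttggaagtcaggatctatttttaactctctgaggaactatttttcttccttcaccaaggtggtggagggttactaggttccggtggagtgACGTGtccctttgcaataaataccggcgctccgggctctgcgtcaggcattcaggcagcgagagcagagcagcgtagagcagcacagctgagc
Mir22hg, chr11:75461289-75461588, plus strand: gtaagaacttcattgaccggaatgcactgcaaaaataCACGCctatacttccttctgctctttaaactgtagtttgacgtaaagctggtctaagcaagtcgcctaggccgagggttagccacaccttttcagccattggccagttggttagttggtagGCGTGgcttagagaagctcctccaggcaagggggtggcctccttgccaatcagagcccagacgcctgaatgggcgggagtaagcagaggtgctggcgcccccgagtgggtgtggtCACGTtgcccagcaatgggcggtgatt
Map2k3os, chr11:60931818-60932117, minus strand: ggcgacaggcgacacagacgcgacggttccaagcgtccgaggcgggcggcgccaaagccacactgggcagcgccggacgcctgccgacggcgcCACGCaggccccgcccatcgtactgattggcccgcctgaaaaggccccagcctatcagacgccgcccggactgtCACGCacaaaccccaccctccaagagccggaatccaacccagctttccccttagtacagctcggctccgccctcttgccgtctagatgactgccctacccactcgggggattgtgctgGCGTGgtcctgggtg
These windows hold 1 core for Chaserr, 4 for Lncpint, 1 for Malat1, 3 for Mir22hg and 3 for Map2k3os. At least 1 core was present in 26 of the 41 lncRNA promoters (63.4%), in 17 of 27 promoters of higher lncRNAs (63.0%) and in 9 of 14 of lower ones (64.3%). The same core was in 63.0% of 1373 promoters of listed protein-coding genes, in 43.8% of all 27025 promoters of the table and in 34.0% of its 9533 lncRNA promoters. The lncRNA promoters held a median of 17 CG pairs, against 21 for listed protein-coding genes and 7 for all promoters, and each core spelled GCGTG or ACGTG includes a CG pair. The E-box CACGTG, whose letters overlap the HIF core, was in 14.6% of the 41 and in 7.24% of all promoters. A match of letters is a description and not a binding site.

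Of the 84 lncRNAs, 61 were higher (72.6%) and 23 were lower under the hypoxia label by limma's test (two-sided, Benjamini-Hochberg adjusted p under 0.05 over all listed genes tested). The background over all 2056 genes tested was 79.4% higher and 20.6% lower, and 100% were called in either direction, because the authors had selected the genes for this difference. The calls are therefore a description, and the members' adjusted p ran only from 1.64e-08 to 0.00629. The groups did not overlap for 84 of 84 lncRNAs, beside 99.9% of all listed genes. Among protein-coding genes 85.1% were higher and among processed pseudogenes 31.8%. The share for lncRNAs lay between these, and no test of the difference was made. Trimmed mean (TMM) factors rest on the assumption that the bulk of a table does not change, and they shifted the median of all genes tested to -0.01, where it was 1.15 as deposited. This table holds only genes selected for a difference, so that assumption cannot be taken to hold here. With them 32 lncRNAs were higher, 29 were not called and 23 were lower, beside 25.8% higher, 26.8% lower and 52.6% called in either direction of all genes tested. Quantile normalization gave 51 higher and 23 lower, beside 67.6% higher, 20.5% lower and 88.1% called in either direction.

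The differences of the lncRNAs ran from -3.21 (Chaserr) to 2.34 (D330041H03Rik) on the log2 scale, with a median of 1.14 where that of all genes tested was 1.15. Higher lncRNAs had a median difference of 1.24, against 1.23 for the other higher genes, and lower lncRNAs one of -1.48, against -1.53. Among lower lncRNAs 5 differed by 2 or more, and among higher ones only D330041H03Rik did. A difference under 1.5 was found in 51 of the 61 higher lncRNAs. The smallest were 1.00 for 2810013P06Rik and -1.004 for Gm30025, next to the authors' selection limit of 1.00.

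**Figure D1:**
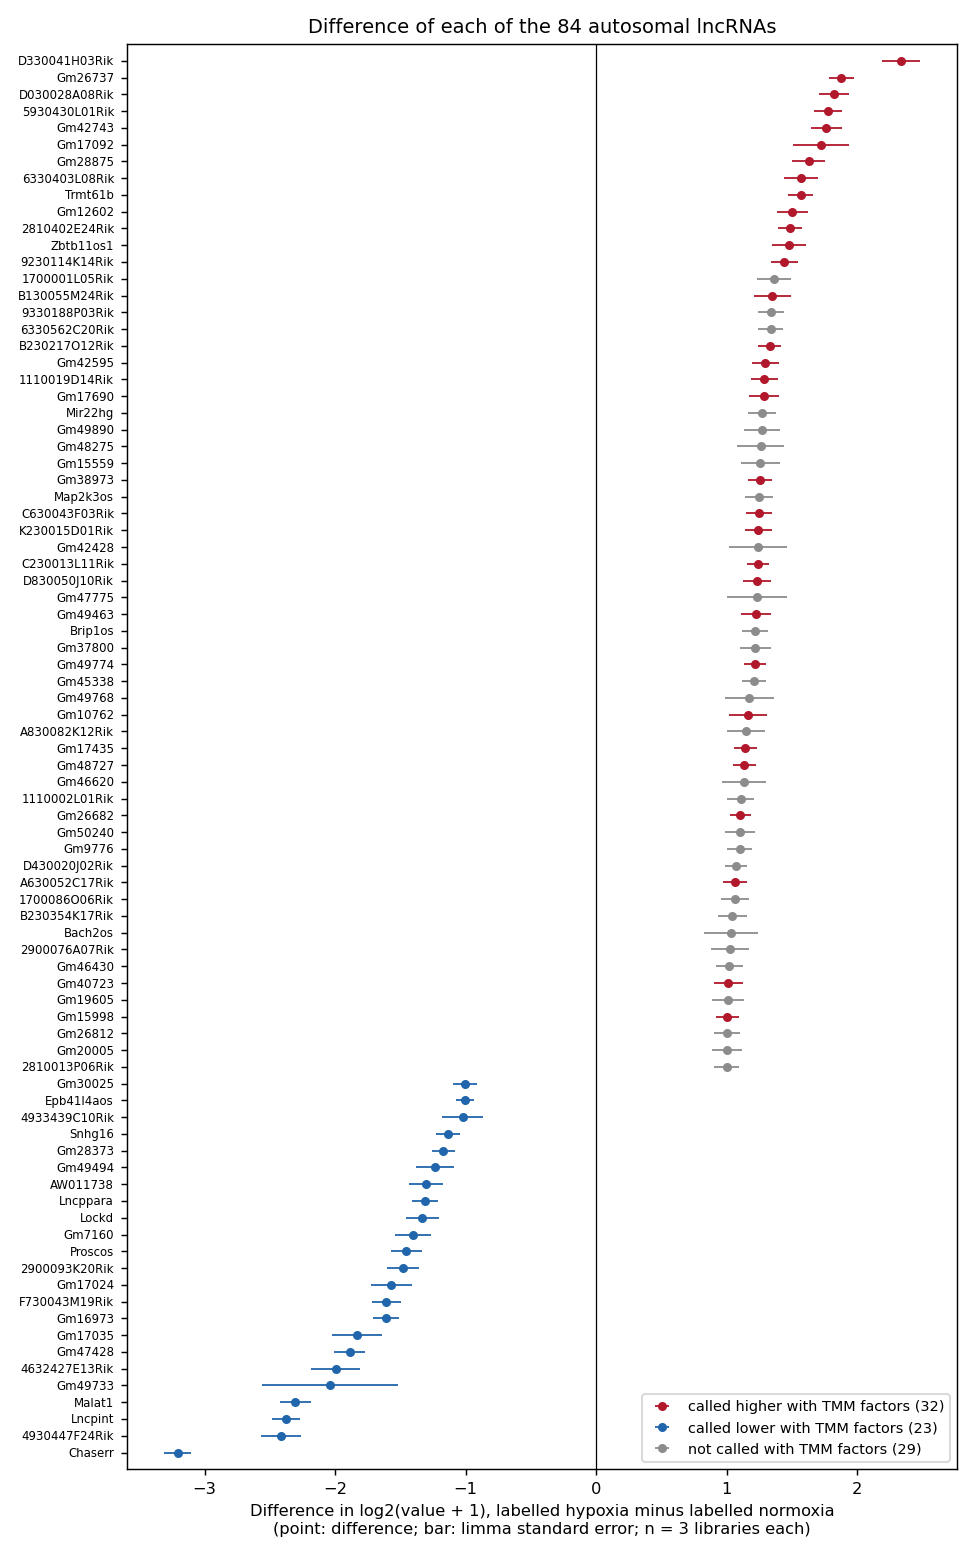
Difference in log2(value + 1) of each of the 84 lncRNAs, libraries labelled hypoxia minus libraries labelled normoxia, with limma's standard error (n = 3 libraries each). Colours show the call with TMM factors: 32 of the 61 higher lncRNAs were still called higher, 29 were not called, and the 23 lower ones were called lower.

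Chaserr, Lncpint, Malat1 and Lockd are described together for their known roles, a grouping made after their values were seen that supports no direction of a class. Each was lower in the libraries labelled hypoxia as deposited. Both rescalings moved them further down, as they did the other lower lncRNAs, and so are no check of this direction. Chaserr (ENSMUSG00000101970, chromosome 7) restrains expression of the chromatin remodeller gene Chd2 in mouse. In GENCODE vM21 Chaserr overlaps Chd2 on the same strand. It had 5.20, 5.01 and 5.02 in the libraries labelled hypoxia, against 8.11, 8.28 and 8.47 in the libraries labelled normoxia. The groups were far apart relative to their spread, at -3.21 ± 0.10 (difference ± SE; limma, adjusted p = 1.64e-08). The mean linear value was 32.8 under the hypoxia label and 312 under the normoxia label, a ratio of 9.51 for normoxia over hypoxia. Chd2 is outside the listed genes and has no value here, and whether the overlapping genes share reads was not tested.

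Lncpint (ENSMUSG00000044471, chromosome 6), a p53-induced lncRNA that interacts with the Polycomb repressive complex in mouse cells, had 0.58, 0.31 and 0.38 in the libraries labelled hypoxia, against 2.73, 2.92 and 2.76 in those labelled normoxia. The difference was -2.38 ± 0.11 on the log2(value + 1) scale, which understates the ratio of a gene this low. On the linear scale Lncpint averaged 0.346 under the hypoxia label and 5.99 under the normoxia label.

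Malat1 (ENSMUSG00000092341, chromosome 19), an lncRNA of nuclear speckles, where splicing factors collect, had 3.61, 3.76 and 3.38 in the libraries labelled hypoxia, against 5.72, 5.88 and 6.06 in those labelled normoxia. The groups lay far apart, with a difference of -2.30 ± 0.12 (limma, adjusted p = 1.40e-07). The libraries favour polyadenylated RNA, and the part of that capture in the Malat1 values was not tested. Lockd (ENSMUSG00000098318, chromosome 6) lies downstream of the cell cycle inhibitor gene Cdkn1b, and its locus acts as an enhancer of Cdkn1b in mouse red blood cell precursors. It had 4.49, 4.81 and 4.71 in the libraries labelled hypoxia, against 5.80, 5.96 and 6.22 in those labelled normoxia, and differed by -1.33 ± 0.12. The highest library labelled hypoxia was below the lowest labelled normoxia for both genes. Cdkn1b has no value here.

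Of 23 snoRNA hosts on a list 2 were listed, both lower under the hypoxia label as deposited, beside 20.6% of all genes tested. Both rescalings moved them further down, as they did the other lower lncRNAs. Snhg16 (ENSMUSG00000020812, chromosome 11), whose annotation holds Snord1a, Snord1b and Snord1c on the same strand, had 5.11, 5.10 and 5.15 in the libraries labelled hypoxia, against 6.07, 6.34 and 6.35 in those labelled normoxia. Epb41l4aos (ENSMUSG00000087590, chromosome 18), which holds the annotated snoRNA Gm23639, had 5.74, 5.79 and 5.73 in the libraries labelled hypoxia, against 6.75, 6.82 and 6.70 in those labelled normoxia. The differences were -1.14 ± 0.09 and -1.004 ± 0.07 for Snhg16 and Epb41l4aos. Outside that list, 2900076A07Rik holds an annotated small Cajal body RNA (scaRNA) on the same strand and was higher as deposited (1.03). Of the proteins that bind or assemble with snoRNAs, 3 of 18 were listed, Dkc1 (1.30 ± 0.12), Shq1 (1.28 ± 0.09) and Znhit6 (1.21 ± 0.09), all higher as deposited, beside 79.4% of all genes tested, with Dkc1 and Znhit6 below 0 and 0 of the 3 called with TMM factors.

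Of 20 symbols on a list of miRNA hosts only Mir22hg was listed, and the other hosts were found through the annotation of small RNA genes. Mir22hg (ENSMUSG00000085148, chromosome 11), the primary transcript of miR-22, had 3.39, 3.28 and 3.28 in the libraries labelled hypoxia, against 2.06, 2.18 and 1.90 in those labelled normoxia. That is 1.27 ± 0.11 (limma, adjusted p = 1.46e-06), and with TMM factors it was 0.17 and not called (limma, adjusted p = 0.179). Gm49890, which holds miR-31, had 2.19, 2.34 and 2.44 in the libraries labelled hypoxia, against 1.21, 1.20 and 0.75 in those labelled normoxia. The transcript 2900076A07Rik, which holds miR-1839, differed by 1.03 ± 0.14. TMM factors ended both calls, at 0.40 (limma, adjusted p = 0.0549) and 0.03 (limma, adjusted p = 0.901).

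Lncppara (ENSMUSG00000116305, chromosome 15), the host of let-7c-2 and let-7b near the lipid regulator gene Ppara, was lower under the hypoxia label, at 0.41, 0.44 and 0.45 in the libraries labelled hypoxia, against 1.57, 1.88 and 1.78 in those labelled normoxia. The difference was -1.31 ± 0.10. Gm28373, the host of miR-1936, had 0.09, 0.11 and 0.10 in the libraries labelled hypoxia, against 1.22, 1.19 and 1.41 in those labelled normoxia, with no library near the other group. On the linear scale it averaged 0.0740 under the hypoxia label and 1.42 under the normoxia label. Of 17 genes that make or carry miRNAs, 3 were listed. The Drosha partner Dgcr8 (1.75 ± 0.14) and the processing enzyme Dicer1 (1.19 ± 0.11) were higher as deposited, beside 79.4% of all genes tested. With TMM factors Dicer1 was at -0.07 and not called. Ago2, the effector that holds the mature miRNA, was lower, with means of 4.13 ± 0.185 (SD, n = 3) under the hypoxia label and 6.06 ± 0.10 (SD, n = 3) under the normoxia label.

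**Figure D2:**
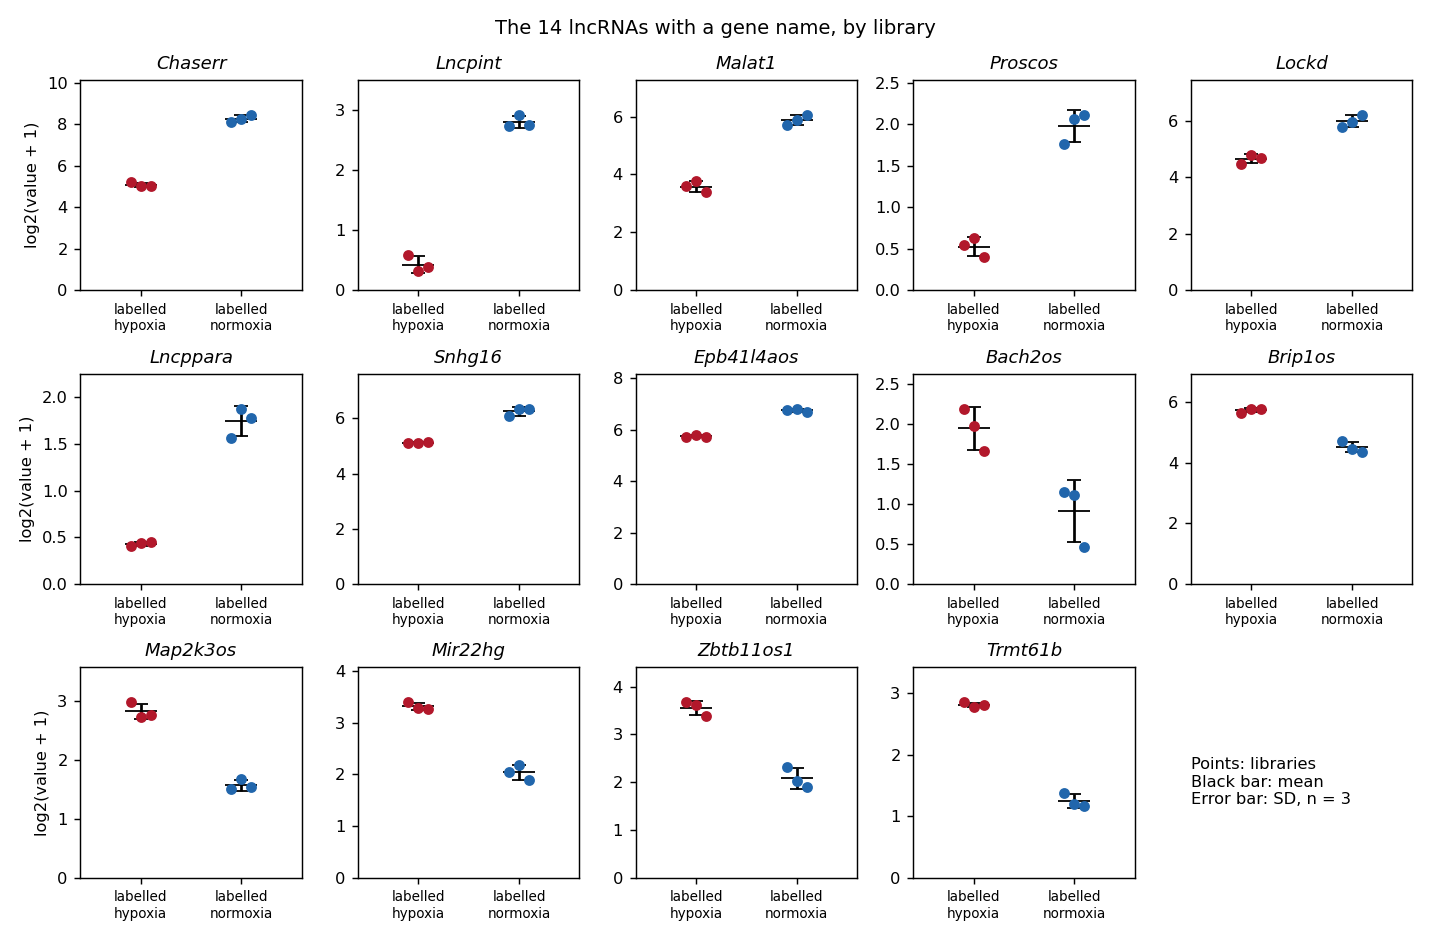
Values in log2(value + 1) of the 14 lncRNAs whose symbol is not a clone or prediction, in 3 libraries labelled hypoxia (left) and 3 labelled normoxia (right), with mean and SD. From Chaserr to Epb41l4aos the 8 lower lncRNAs come first, then the 6 higher ones, and the groups do not overlap for any of the 14.

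The other lncRNAs with a gene name are antisense or divergent partners of protein-coding genes, 1 lower and 5 higher in the libraries labelled hypoxia. Proscos (ENSMUSG00000091154, chromosome 8), antisense to the vitamin B6 binding protein gene Plpbp, had 0.54, 0.63 and 0.40 in the libraries labelled hypoxia, against 1.77, 2.06 and 2.12 in those labelled normoxia. Its difference was -1.46 ± 0.12. Map2k3os (ENSMUSG00000042549, chromosome 11), beside the p38 kinase activator gene Map2k3, had 2.97, 2.72 and 2.76 in the libraries labelled hypoxia, against 1.50, 1.67 and 1.53 in those labelled normoxia. Map2k3os and Map2k3 were both higher as deposited, by 1.25 ± 0.11 and 1.92 ± 0.08, and with TMM factors they differed by 0.24 (limma, adjusted p = 0.111, not called) and 0.65.

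Zbtb11os1, antisense to a zinc finger gene, was at 3.67, 3.62 and 3.39 in the libraries labelled hypoxia, against 2.32, 2.01 and 1.91 in those labelled normoxia, and was still called higher with TMM factors (0.36; limma, adjusted p = 0.0223). Brip1os was at 5.65, 5.78 and 5.77 in the libraries labelled hypoxia, against 4.71, 4.46 and 4.36 in those labelled normoxia. Its difference of 1.22 ± 0.10 turned to -0.06 with TMM factors (limma, adjusted p = 0.504). Bach2os, antisense to a transcriptional repressor gene of lymphocytes, was the most scattered of the 14. It had 2.19, 1.98 and 1.66 in the libraries labelled hypoxia, against 1.15, 1.12 and 0.47 in those labelled normoxia, and neither TMM factors (limma, adjusted p = 0.38) nor quantile normalization (limma, adjusted p = 0.105) kept its call. The row with the symbol Trmt61b has that of a protein-coding gene, but the files type it as lncRNA and the annotation places it antisense to Spdya, so its identity is uncertain. It had 2.85, 2.78 and 2.81 in the libraries labelled hypoxia, against 1.37, 1.21 and 1.16 in those labelled normoxia.

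The lncRNAs that are known only by clone or prediction symbols made up 70 of the 84, 55 higher and 15 lower, while the 14 with a gene name were 6 higher and 8 lower. The shares higher were 78.6% and 42.9%, beside 79.4% of all genes tested, and were not tested against each other. D330041H03Rik (ENSMUSG00000073437, chromosome 17), on the strand opposite to the lipid transporter gene Abca3, had the largest difference among the higher lncRNAs. It had 3.71, 3.80 and 3.65 in the libraries labelled hypoxia, against 1.71, 1.30 and 1.15 in those labelled normoxia, which is 2.34 ± 0.15 as deposited and 1.31 with TMM factors (limma, adjusted p = 6.45e-05). Gm26737, opposite to the ubiquitin ligase gene Rnf26, had 2.55, 2.65 and 2.57 in the libraries labelled hypoxia, against 0.82, 0.65 and 0.66 in those labelled normoxia. D030028A08Rik, which overlaps protein-coding genes on both strands, had 3.19, 3.39 and 3.38 in the libraries labelled hypoxia, against 1.62, 1.55 and 1.32 in those labelled normoxia. All 3 kept a call of higher with TMM factors.

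Gm17092, opposite to the RNA-binding protein gene Hnrnpd, was uneven among the libraries labelled hypoxia, at 3.65, 2.73 and 3.37, against 1.68, 1.42 and 1.46 in those labelled normoxia. Gm28875, with no overlapping protein-coding gene, had 3.12, 3.33 and 3.12 in the libraries labelled hypoxia, against 1.77, 1.56 and 1.36 in those labelled normoxia. For 6330403L08Rik, opposite to the growth factor gene Pdgfa, the values were 2.74, 2.89 and 2.74 in the libraries labelled hypoxia, against 1.47, 1.18 and 0.99 in those labelled normoxia. In each of these 3 the lowest library labelled hypoxia was above the highest labelled normoxia. Gm12602 differed by 1.50 ± 0.12.

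Among lower lncRNAs of this kind, 4930447F24Rik, opposite to the synaptic scaffold gene Bsn, had 3.36, 3.25 and 2.86 in the libraries labelled hypoxia, against 5.78, 5.60 and 5.34 in those labelled normoxia. Gm49733, inside an intron of the SUMO protease gene Senp5, had the widest spread of all 84, with 2.19, 0.26 and 1.44 in the libraries labelled hypoxia, against 2.63, 3.56 and 3.82 in those labelled normoxia. Its difference of -2.04 ± 0.52 had an adjusted p of 0.00629 by limma, and the authors' deposited table gives 0.0478, in both cases the highest among the lncRNAs. The SE was under 0.25 for the other 83.

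The divergent lncRNA 4632427E13Rik had 0.60, 1.12 and 1.28 in the libraries labelled hypoxia, against 2.75, 3.22 and 3.01 in those labelled normoxia. Gm47428 had 1.54, 1.40 and 1.82 in the libraries labelled hypoxia, against 3.49, 3.44 and 3.50 in those labelled normoxia. Gm17035 had 2.41, 1.66 and 1.68 in the libraries labelled hypoxia, against 3.79, 3.76 and 3.70 in those labelled normoxia. In these 3 the libraries labelled normoxia lay closer together than those labelled hypoxia.

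Each lncRNA was paired with the protein-coding genes that overlap it or stand next to it in the order of GENCODE vM21, where they were listed too. Such a neighbour was found for 33 of the 84 lncRNAs (39.3%), against 25.7% of listed protein-coding genes, in 41 pairs. In 29 pairs (70.7%) both genes changed in the same direction and in 12 they changed in opposite directions, against 83.4% in the same direction among pairs of protein-coding genes. A pair of protein-coding genes can be counted from each of its genes, an lncRNA pair only from the lncRNA. For higher lncRNAs 25 of 28 pairs went the same way (89.3%), beside 90.1% for higher protein-coding genes. For lower lncRNAs 4 of 13 did (30.8%), beside 46.1% for lower protein-coding genes. With most listed genes higher, a higher neighbour is common for either kind. With TMM factors the signs matched in 43.9% of lncRNA pairs and 52.5% of protein-coding pairs.

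By position, 9 of 9 neighbours that overlap on the opposite strand went the same way as the lncRNA. The share was 87.5% of 48 such entries of protein-coding genes, where each pair is entered from both of its genes. On the same strand 2 of 3 overlapping neighbours did, and of the 29 neighbours that stand next to the lncRNA without overlap 18 did (62.1%), against 82.6% for protein-coding genes. No source used here gives whether the authors' counting used the strand, so reads of overlapping genes may not be told apart. With TMM factors the signs matched in 5 of the 9 opposite-strand pairs.

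The overlapping pairs of lower genes were Gm17035 with Ndrg1, Gm47428 with Ftl1-ps1, and 4933439C10Rik with Zkscan17. Ndrg1, a stress-responsive growth restraint gene and a HIF target, had 8.24, 8.00 and 7.99 in the libraries labelled hypoxia, against 10.01, 10.01 and 10.08 in those labelled normoxia, and differed by -1.96 ± 0.09 where its antisense partner Gm17035 differed by -1.83 ± 0.19. In both genes hypoxia replicate 1 was the highest of its label. Ftl1-ps1 differed by -1.78 ± 0.10 and Gm47428 by -1.89 ± 0.12, and Ftl1-ps1 may share reads with the ferritin gene Ftl1. The zinc finger gene Zkscan17 had 4.71, 4.70 and 4.57 in the libraries labelled hypoxia, against 5.61, 5.70 and 5.67 in those labelled normoxia, and 4933439C10Rik differed by -1.02 ± 0.16. Among higher genes, Pdgfa had 6.99, 6.96 and 7.05 in the libraries labelled hypoxia, against 5.22, 5.19 and 5.02 in those labelled normoxia, a difference of 1.85 ± 0.08 beside 1.57 ± 0.13 for its antisense partner 6330403L08Rik. Hnrnpd (1.18) and Rnf26 (1.15) were higher as deposited together with their partners Gm17092 and Gm26737, and both coding genes, though neither partner, were below 0 with TMM factors.

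Of the 12 pairs that moved in opposite directions, 9 were a lower lncRNA beside a higher coding gene. The Rab GTPase gene Rab30, next to 4632427E13Rik on the opposite strand, had 2.03, 2.18 and 1.89 in the libraries labelled hypoxia, against 0.81, 0.70 and 0.59 in those labelled normoxia, a difference of 1.33 ± 0.11 beside -1.995 ± 0.19 for the lncRNA. Ccn4, a secreted matricellular protein gene on the other side of Gm17035, had 4.27, 4.14 and 4.19 in the libraries labelled hypoxia, against 2.11, 1.78 and 1.55 in those labelled normoxia. Both coding genes stayed above 0 with TMM factors, at 0.57 and 1.28. Apold1, next to Lockd, differed by 1.32 ± 0.13, Nrep, next to Epb41l4aos, by 1.11 ± 0.11, and Erlin2 and Adgra2, next to Proscos, by 1.02 ± 0.12 and 1.40 ± 0.10. Of these 4 only Erlin2 was below 0 with TMM factors, at -0.20. The inflammasome sensor gene Nlrp3, next to 4933439C10Rik, differed by 1.86 ± 0.09. Both were low, with means of 0.08 for Nlrp3 under the normoxia label and 0.98 for 4933439C10Rik under the hypoxia label. In the reverse case, the higher lncRNA Gm45338 (1.21 ± 0.09) overlaps the interferon-inducible gene Rtp4 (-1.20 ± 0.10) on the same strand.

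Some pairs were chosen after their values were seen, because the coding gene had a large difference or a known role. A4galt, a glycolipid synthesis gene next to Gm49463 (1.23), differed by 2.69 ± 0.18, and the endoplasmic reticulum co-chaperone gene Dnajc3, next to Gm49768 (1.18), by 2.59 ± 0.11. The amino acid transporter gene Slc7a5, next to Gm26812 (1.00), had 7.64, 7.60 and 7.66 in the libraries labelled hypoxia, against 5.82, 5.87 and 5.76 in those labelled normoxia. In these 3 pairs the coding gene moved further than the lncRNA. The lower AW011738 (-1.30) stands next to the lower interferon-stimulated gene Isg15 (-1.11). Gm42743 (1.76) overlaps the histone gene H2bc18 (1.34) on the same strand and stands next to H3c13 (-1.85). With TMM factors Gm42743 was called higher (0.96) and H2bc18 was not called (0.38). The part of poly(A) capture in the histone values was not tested.

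**Figure D3:**
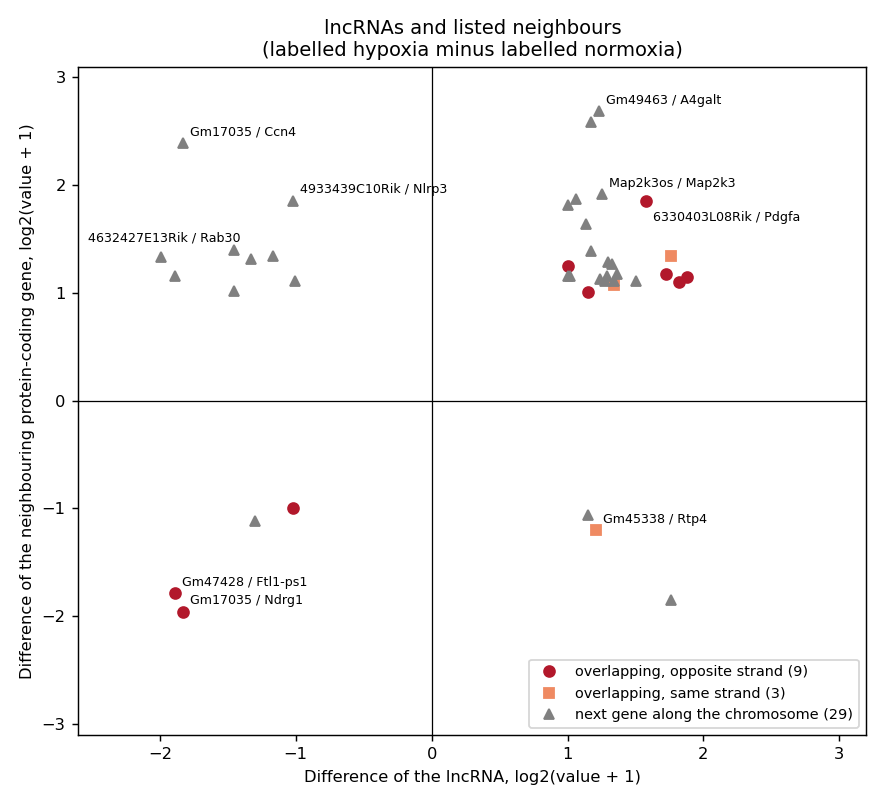
Difference in log2(value + 1), libraries labelled hypoxia minus libraries labelled normoxia, of the lncRNA (x) and of the listed neighbouring protein-coding gene (y) in 41 pairs. The 9 pairs that overlap on opposite strands lie in the quadrants of equal sign, and 9 of the 13 pairs of lower lncRNAs lie in the upper left, with a higher coding gene.

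By GENCODE vM21 class, 28 lncRNAs were intergenic (22 higher, 6 lower), 25 antisense (20 higher, 5 lower), 19 processed transcripts (12 higher, 7 lower) and 8 divergent from a bidirectional promoter (6 higher, 2 lower). The shares higher were 78.6%, 80.0%, 63.2% and 75.0% in this order, beside 79.4% of all genes tested. The 2 sense-intronic ones, Gm49733 and Gm17024, were both lower. That annotation has 2 further members, Gm10762 (higher) and AW011738 (lower), as protein-coding genes. A protein-coding gene is overlapped by 49 of the 84, on the opposite strand only by 36, on the same strand only by 9 and on both strands by 4. Chromosomes 5 and 12 hold 8 lncRNAs each, 8 higher and 0 lower on chromosome 5, and 4 higher and 4 lower on chromosome 12. With 79.4% of all genes tested higher, a difference between chromosomes or classes was not tested. The median longest transcript was 1774 bases, against 3377 bases for listed protein-coding genes, and 1813 bases for higher lncRNAs and 1411 bases for lower ones. Median GC content was 48.7% for lncRNAs and 49.9% for protein-coding genes.

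Low values were common among the higher lncRNAs. Their median group mean was 2.59 under the hypoxia label and 1.25 under the normoxia label on the log2(value + 1) scale, and for lower lncRNAs it was 1.70 under the hypoxia label and 3.34 under the normoxia label. The mean linear value was under 1 in the libraries labelled normoxia for 22 of 61 higher lncRNAs, and under 1 in the libraries labelled hypoxia for 7 of 23 lower ones. Adding 1 shrinks the difference of a low gene, so a low gene needed a larger ratio to pass the authors' selection limit of 1.00. The median ratio of linear means was 3.56 for higher lncRNAs and 2.66 for other higher genes, while their median differences were nearly equal. These ratios are therefore shaped by the selection. The median SD within the hypoxia label was 0.10 for lncRNAs and 0.07 for other genes, and within the normoxia label 0.16 and 0.14.

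With TMM factors 32 of 61 higher lncRNAs (52.5%) were still called higher, against 31.7% of other higher genes, and 7 of the 61 fell below 0 while 0 were called lower. Of higher lncRNAs with a mean linear value of at least 5 in a group, 10 of 31 (32.3%) were still called, against 28.1% of 1411 other genes. Of those under 5 in both groups 22 of 30 (73.3%) were, against 62.7% of 161 other genes. The 1 was added after the rescaling, so TMM factors shift a low gene less by construction. These shares therefore do not show that calls of low genes hold better. The 23 lower lncRNAs were called lower as deposited and under both rescalings, and their median was -2.46 with TMM factors. The other 400 lower genes also stayed called lower with TMM factors, 400 of 400. The median of the lower lncRNAs was -1.48 as deposited and -2.21 with quantile normalization. Both rescalings thus moved lower genes further down and could not test whether a lower call holds.

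**Figure D4:**
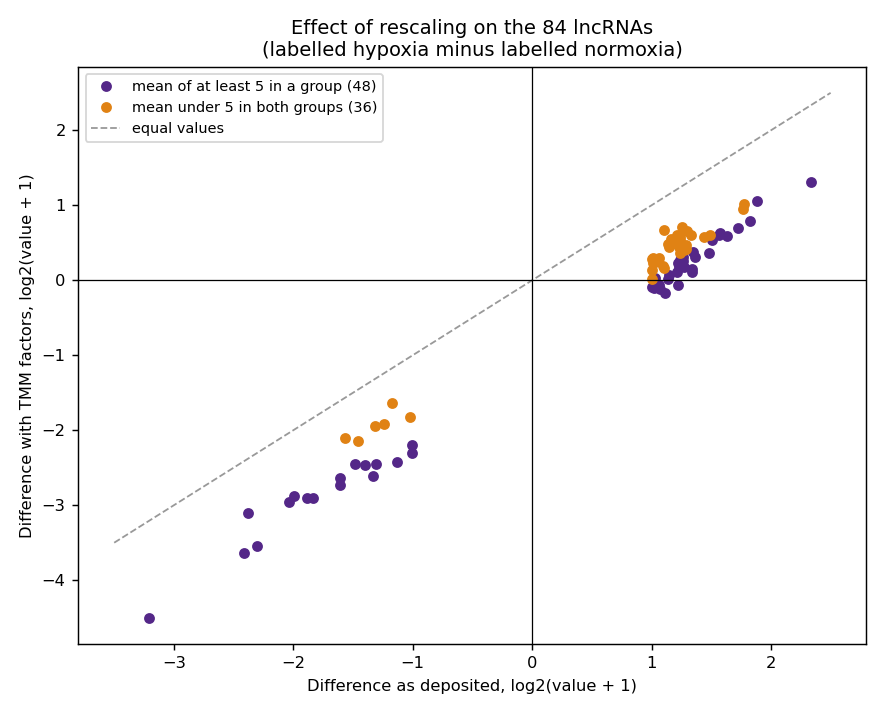
Difference of each of the 84 lncRNAs as deposited (x) and with TMM factors (y), in log2(value + 1), libraries labelled hypoxia minus libraries labelled normoxia. All points lie below the line of equal values, 7 higher lncRNAs lie below 0 on the y axis, and the 7 have a mean linear value of at least 5 in a group. Low genes shift less by construction, because 1 is added after the rescaling.

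Of 16 paraspeckle proteins, which assemble on a nuclear lncRNA, 6 were listed and all were higher as deposited, beside 85.1% of listed protein-coding genes, such as Rbm14 (1.57 ± 0.12), Hnrnpm (1.39 ± 0.10) and Fam98a (1.21 ± 0.08). With TMM factors Fam98a, Taf15 and Sfpq were among those below 0, Rbm14 was called higher, and Taf15 and Sfpq were called lower. Of 29 genes of nuclear RNA decay, the exosome subunits Exosc1 (1.03 ± 0.07) and Exosc7 (1.14 ± 0.08) were listed and higher as deposited, and both were below 0 with TMM factors. Of the widely studied lncRNAs 2 of 37 were listed, Chaserr and Malat1, and of the immune and stress lncRNAs 2 of 19, Mir22hg and Lncpint.

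Within the normoxia label, replicate 2 had the value nearest to the libraries labelled hypoxia for 63 of 84 lncRNAs (75.0%), and for 67.2% of the other genes. Replicate 4 had the farthest for 55 of 84 (65.5%), and for 57.6% of the other genes. Without normoxia replicate 2, 3 or 4, or without hypoxia replicate 1, 2 or 4, the counts were 61 higher and 23 lower each time. The genes had been selected on these same libraries, so these counts had little room to change and are no independent support.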

How the data were processed

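RNA sequencing libraries of MLO-Y4 cells, 3 labelled hypoxia and 3 labelled normoxia, were grouped by their GEO titles. Per the labels' protocols, RNA was treated with DNase, an RNA integrity number of at least 8 was required, and a stranded messenger RNA kit was used. Per the submitters' processing notes, FastQC 0.12.0, DRAGEN and the build GRCm39 (mm39) were used, and no source used here gives DRAGEN's version and settings or the counting rule. The authors deposited log2 entries per library. Raising 2 to an entry and subtracting 1 gave a number of 3 decimals for 100% of entries (tolerance 1e-06), so entries were read as log2(value + 1). The authors' deposited p-values are adjusted by a method that no header names. The smallest absolute log2 fold change deposited by the authors is 1.00. A further 21 columns of values, in all, were not used, 18 repeating library values and 3 of mice outside the series.

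The difference, hypoxia minus normoxia, was tested with limma 3.58.1 in R 4.3.3 (trend, robust) on log2(value + 1), over genes whose value reached 1 in 3 or more libraries. This left out 9 genes and kept all 84 lncRNAs. P-values were adjusted by Benjamini-Hochberg over all 2056 genes tested, with a threshold of 0.05. The fit was tested on simulated data in which most genes did not change. That test therefore does not cover a table of genes selected for a difference. No counts could be recovered, so precision is given only by the spread between libraries. TMM factors were computed without weights. The annotation GENCODE vM21 is of GRCm38 and was used for class, strand, gene order, transcript length and GC content, matched by gene identifier for 84 of 84 lncRNAs and 98.1% of listed genes. The genes named were all lncRNAs with a symbol other than a clone, accession or prediction name, and the 8 largest differences in each direction with a mean linear value of at least 5 in a group and no overlap between groups. Listed neighbours and up to 3 members of each gene list were added, and some further members of the short lists, while a few single genes are not reported here. The lncRNAs, the lists and the tests were chosen with earlier results of these data known. Replicate numbers 2 and 4 are shared by the groups, but no label says that they mark a shared culture or day. Other settings tried were a pseudocount of 0.1 or 5, removing the filter or raising it to 5, quantile normalization or TMM factors, no trend in limma, the replicate block, a threshold of 0.01, and leaving out libraries in turn.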

Additional observations from a re-analysis of the deposited data

How the results depend on the processing

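The counts of 61 higher and 23 lower lncRNAs held with pseudocounts of 0.1 and 5, without a filter, without trend, with the threshold of 0.01 and without each library. The authors had selected the genes on these same libraries, so counts that held are no independent support. A filter of 5 left 42 lncRNAs tested and 25 higher. TMM factors left 32 higher. The median difference was 1.55 with a pseudocount of 0.1, 0.51 with one of 5, 0.41 with quantile normalization and 0.21 with TMM factors. Without each library in turn it ran from 1.08 to 1.18. With a replicate block, which rests on replicates 2 and 4 and has 1 residual degree of freedom, the counts were 61 and 23 and the median was 1.13. Deviations of same-numbered libraries correlated at 0.08 (replicates 2) and -0.07 (replicates 4), so the numbers were not taken as pairs. Of 386 values of the 26 named lncRNAs under alternatives, 381 kept direction and side of the threshold, with the same limit from the selection. Brip1os turned to -0.059 with TMM factors, and the calls of Mir22hg and Map2k3os ended with TMM factors (0.17 and 0.24), as did that of Bach2os with TMM factors (0.25) and quantile normalization (0.43). The rescalings differ by construction in how far they centre the table. Genes outside the selected table, the unnamed unit and the unknown depth limit all values.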
